A study of Mus musculus with 6 samples.

Results

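Cytosolic ribosomal protein genes encode the proteins of the ribosome that translates mRNA in the cytoplasm, and 47 of them were measured in spleens of mice fed a control or a garlic diet. Members were the probe sets named for a single gene whose symbol was Rpsa or had the form Rpl or Rps, a number and at most a short ending. Where a gene had several such probe sets, the brightest by mean log2 signal over the 6 arrays stood for it. This gave 47 of the 18193 genes that had a probe set of their own, with 103 of 45037 probe sets between them. RefSeq holds 81 protein-coding symbols of this form, so the members are a part of the family. The rule itself reads symbols and brightness, not the difference between the diets. By symbol, 24 members belonged to the large subunit (Rpl) and 23 to the small subunit (Rps).

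Male C57BL/6J (B6) mice, 8 weeks old at the start and of no stated genetic modification, were fed the same casein, sucrose and cornstarch diet with 1 of 2 supplements. Control mice received cellulose at 4% of the diet, and garlic-fed mice received lyophilized raw garlic powder at 4%. Spleens were taken at week 15 from 3 mice of each group, and the total RNA of each spleen was hybridized to 1 Affymetrix array, so that a replicate was a separate mouse. The comparison of garlic-fed with control mice was the only one in the design, and it was made here for the ribosomal protein genes.

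A ribosome holds 1 copy of nearly every ribosomal protein, and a cell must therefore make them in matched amounts. Their mRNAs are among the most abundant of a growing cell. Many of them start with a terminal oligopyrimidine (TOP) tract, a cytosine followed by a run of cytosines and thymines, through which the mTOR pathway and the TOP-binding protein Larp1 control their translation. Erythroid precursors are known to be sensitive to a shortage: loss of 1 copy of several of these genes causes Diamond-Blackfan anemia in humans. Rpsa has its own link to the organ studied, since its mutation causes isolated congenital asplenia.

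The TOP tract is the sequence feature that members of this family are known to share, so the RefSeq start sites (build GRCm38.p6) were read for it. Of the 47 members, 41 were in the table of start sites, and Rpl7, Rpl8, Rps14, Rps20, Rps29 and Rps4l were not. The windows below hold the 10 bases before the annotated start and the first 20 bases of the transcript, on the strand of the gene. Capitals mark the longest run of C and T in those 20 bases. Where a gene had several annotated starts, the start with the longest such run was taken, for members and for all genes alike. The first 7 are the tested members whose transcript, from that start, opens with a C followed by at least 4 bases that are each C or T. The last 2, Rpl37 and Rpl12, are the members with the smallest p-values between the diets.
Rps6, chr4:86857348-86857377 (minus strand): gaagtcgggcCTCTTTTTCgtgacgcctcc
Rpl35, chr2:39005112-39005141 (minus strand): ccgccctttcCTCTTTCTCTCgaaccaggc
Rps10, chr17:27635225-27635254 (minus strand): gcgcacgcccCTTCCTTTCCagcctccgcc
Rps18, chr17:33955646-33955675 (minus strand): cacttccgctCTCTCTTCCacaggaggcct
Rpl38, chr11:114668570-114668599 (plus strand): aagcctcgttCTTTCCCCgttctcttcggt
Rps27, chr3:90213629-90213658 (minus strand): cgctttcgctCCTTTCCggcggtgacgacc
Rpl14, chr9:120571507-120571536 (plus strand): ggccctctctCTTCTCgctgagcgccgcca
Rpl37, chr15:5116603-5116632 (plus strand): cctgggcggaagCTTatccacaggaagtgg
Rpl12, chr2:32961702-32961731 (plus strand): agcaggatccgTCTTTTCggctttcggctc

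Of the 39 members that were both tested and in the table, 7 (17.9%) opened with such a tract, compared with 281 (2.84%) of the 9890 genes tested that were in it. A run of at least 6 C or T anywhere in the first 20 bases was found in 18 of the 39 members (46.2%), in 21.8% of the genes tested and in 21.6% of all 27025 genes of the table. In Rpl12 the run begins at the second base after the annotated start. The shares above are those of the start with the longest run of each gene, not of every annotated start. Start sites used in the spleen were not measured, and a window without a run says only that these letters were not in it. As a description, the members with a run of at least 6 had a median log2 fold change of -0.027 between the diets, with a range of -0.33 to 0.15. In the 21 members with shorter runs the median was -0.0094 and the range -0.61 to 0.12, so the ranges of both sets overlapped.

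The deposited signals showed ribosomal protein mRNAs at nearly the same level in both groups. Of the 47 genes, 45 were bright enough to be tested, and none of them rose or fell past an adjusted p of 0.05 (limma, Benjamini-Hochberg over all 27022 probe sets tested). Among all 12262 genes tested, 42 (0.343%) were higher in garlic-fed mice and 1 (0.00816%) was lower at that threshold, so a count of 0 among 45 is near the background. At an unadjusted p under 0.05, 0 members were higher, against 6.89% of all genes, and 2 members (4.44%), Rpl37 and Rpl12, were lower, against 6.24% of all genes. Every garlic-fed mouse was above every control mouse for 0 members (9.13% of all genes). Every garlic-fed mouse was below every control mouse for 3 members, Rpl37, Rpl12 and Rps6, or 6.67% of them (10.7% of all genes). These shares were at or under those of all genes. The probe sets of Rpl37, Rpl12 and Rps6 were dim for the family, with mean log2 signals of 11.1, 9.82 and 11.0 against a median of 14.7 over the tested members. Whether they read the main mRNA of each gene was not tested. The same holds for still dimmer members, among them Rpl39, Rpl14 and Rps27, with mean log2 signals of 8.40, 9.05 and 8.46.

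The median log2 fold change of the 45 members, garlic-fed minus control, was -0.016, with quartiles of -0.059 and 0.012 and a range from -0.61 (Rpl39l) to 0.15 (Rpl39). Over all genes tested the median was -0.028, with quartiles of -0.17 and 0.11. The direction of the family depended on the scaling: 14 members were above 0 and 31 below on the deposited scale, but 38 were above 0 and 7 below after each array was centered on its median, where the median of the members was 0.062 and that of all genes 0.050. Quantile normalization gave a median of -0.015, with 15 members above 0 and 30 below. The shift between scales was larger than the family's difference between the diets, and no direction is therefore given for the family as a whole.

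**Figure D1:**
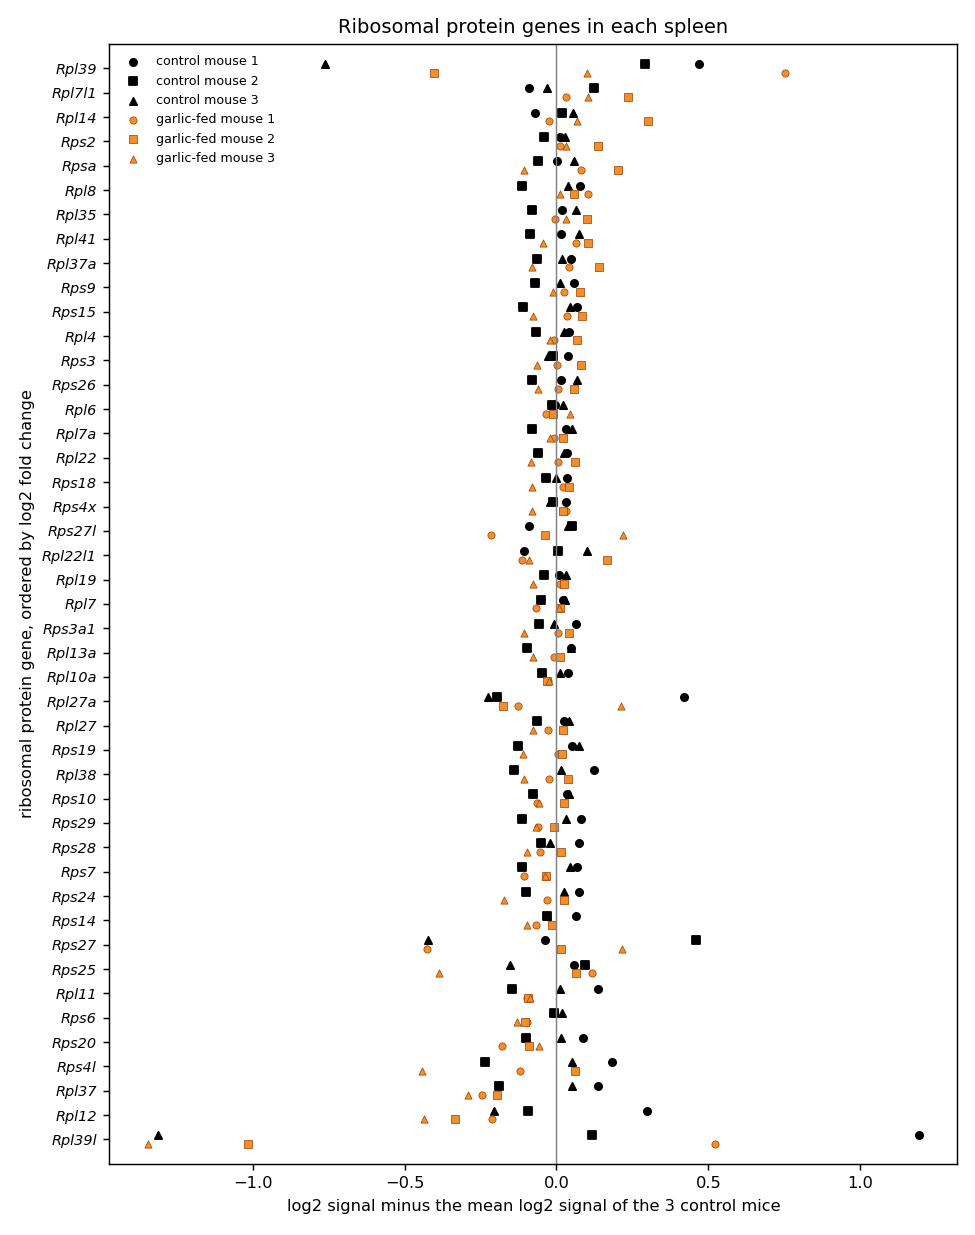
Log2 signal of each of the 45 ribosomal protein genes tested in each of the 6 spleens, as the difference from the mean of the 3 control mice (black circles, squares and triangles: control mice 1, 2 and 3; orange: garlic-fed mice 1, 2 and 3). Genes are ordered by log2 fold change, from Rpl39 (0.15) at the top to Rpl39l (-0.61) at the bottom; for most genes all 6 mice lie close to 0 and the groups overlap.

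Seen mouse by mouse, the family overlapped between the diets. The summed signal of the 47 genes was 2.91%, 2.74% and 2.87% of the signal of all probe sets in controls 1, 2 and 3. It was 2.83%, 2.90% and 2.72% in garlic-fed mice 1, 2 and 3. The groups overlapped, and the lowest shares of both groups, 2.74% and 2.72%, were nearly equal. The large subunit members made up 1.26% to 1.34% of the signal in controls and 1.27% to 1.35% in garlic-fed mice. The small subunit members made up 1.47% to 1.57% in controls and 1.45% to 1.55% in garlic-fed mice.

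The median deviation of the 45 members from the control mean was 0.041, -0.065 and 0.026 on the log2 scale in the controls and -0.0093, 0.024 and -0.078 in the garlic-fed mice. On the deposited scale control mouse 2 and garlic-fed mouse 3 were thus the low spleens for this family, each in a different diet group. In control mouse 1, 38 of the 45 members were above the control mean, and in control mouse 2 only 8 were. In the garlic-fed mice 19, 31 and 11 members were above it. After each array was centered on its median, the values were 0.024, -0.034 and 0.012 in the controls and 0.011, 0.15 and 0.0094 in the garlic-fed mice. On that scale garlic-fed mouse 3 lay within the control range and garlic-fed mouse 2, whose array had the lowest median signal (119.7), stood above all others. On the deposited scale the median deviation of all genes tested ran from -0.0062 to 0.0097 in controls and from -0.041 to 0.0024 in garlic-fed mice.

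**Figure D2:**
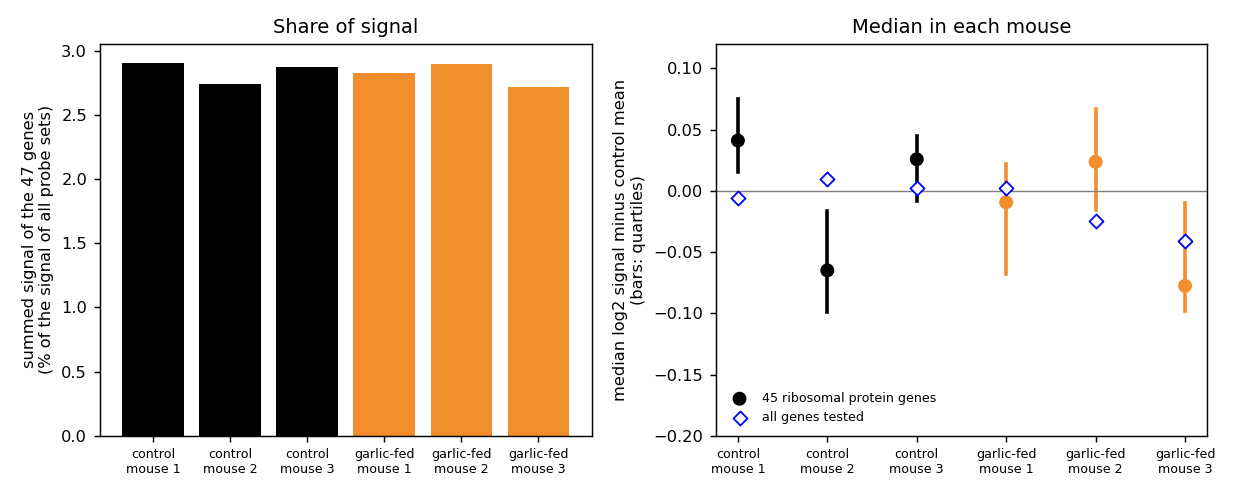
Left, summed signal of the 47 ribosomal protein genes as a percentage of the signal of all probe sets, 1 bar for each mouse (black, control; orange, garlic-fed); the bars lie between 2.72% and 2.91%. Right, median log2 deviation of the 45 genes tested from the control mean in each mouse, with bars from the lower to the upper quartile of the genes, beside the median of all genes tested (open diamonds); on this scale, without centering, control mouse 2 (-0.065) and garlic-fed mouse 3 (-0.078) are the lowest.

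The arrays agreed closely for these genes, and the intervals were narrow. The within-group SD of log2 signal had a median of 0.076 over the 45 members, compared with 0.17 over all genes tested. Brightness went with it: 34 of the 45 members lay among the 1227 genes in the top 10% of mean signal, where the median SD was 0.11 over all genes and 0.066 over the members. Whether the brightest probe sets were near the upper limit of the scanner was not tested. For 32 members (71.1%) the whole 95% limma interval of the difference lay within 1.2-fold in either direction, as it did for 7.29% of all genes tested. For 41 members (91.1%) it lay within 1.5-fold, compared with 63.4% of all genes, and the exceptions were Rpl12, Rpl39, Rpl39l and Rps27. For 44 members it lay within 2-fold, and the exception was Rpl39l. The intervals are those of single genes, without adjustment for their number. In limma the spread behind them is drawn toward that of genes of like signal. Neither the shares nor the SDs of all genes were matched to the members for brightness. The top 10% began at a mean log2 signal of 11.7, while the median over the tested members was 14.7.

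**Figure D3:**
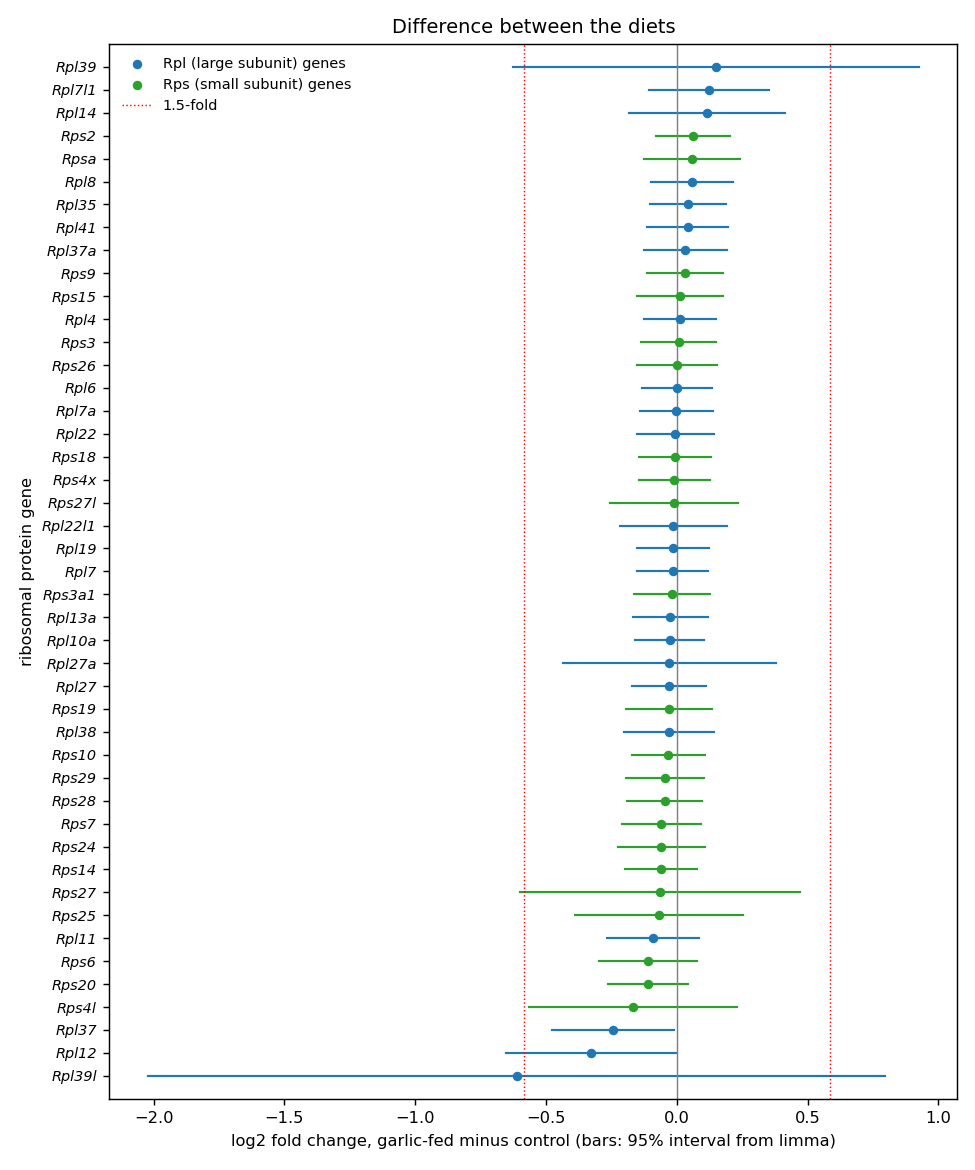
Log2 fold change of each ribosomal protein gene tested, garlic-fed minus control (points), with its 95% limma interval (lines), for large subunit (blue) and small subunit (green) genes; dotted lines mark 1.5-fold. The intervals of 41 of the 45 genes lie between the dotted lines, and those of Rpl12, Rpl39, Rpl39l and Rps27 cross at least 1 of them.

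Among the large subunit members, 8 were above 0 and 15 below on the deposited scale, with a median log2 fold change of -0.013. Rpl37, a protein with a zinc finger on the surface of the large subunit (gene at chr15:5116613-5119140, GRCm38.p6), had signals of 2717.2, 2170.3 and 2560.9 in control mice. Its signals in garlic-fed mice were 2086.2, 2156.2 and 2021.9. All 3 garlic-fed mice were below all 3 control mice, though garlic-fed mouse 2 and control mouse 2 were nearly equal. The mean was 2483 ± 282 (SD, n = 3) in control and 2088 ± 67.2 (SD, n = 3) in garlic-fed mice, and the log2 fold change was -0.24 (SE 0.10, adjusted p = 0.43, with an unadjusted p of 0.042). After median centering the difference was -0.17 with an unadjusted p of 0.16.

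Rpl12 sits at the base of the stalk to which elongation factors bind (gene at chr2:32961712-32964045). Its signals were 1248.5, 951.5 and 881 in controls and 876.5, 805.1 and 750.8 in garlic-fed mice. The groups did not overlap, but the lowest control mouse and the highest garlic-fed mouse differed by less than 5 signal units. The log2 fold change was -0.33 (SE 0.15, adjusted p = 0.45, with an unadjusted p of 0.048). Without control mouse 1 the log2 fold change was -0.18 for Rpl12 and -0.18 for Rpl37, compared with -0.33 and -0.24 over all arrays. Neither gene then had an unadjusted p under 0.05. Neither had one without garlic-fed mouse 2, without garlic-fed mouse 3, or by the methods' analysis of variance over all arrays. Without garlic-fed mouse 2 the log2 fold changes were still -0.32 for Rpl12 and -0.27 for Rpl37.

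Rpl11, which with Rpl5 and the 5S rRNA forms the particle that binds Mdm2 and so stabilizes p53, had signals of 20704.8, 17037.2 and 18979 in control and 17640.5, 17652 and 17748.1 in garlic-fed mice. The garlic-fed mice lay close together within the range of the control mice (log2 fold change -0.092, SE 0.079, adjusted p = 0.74). Rpl5 itself was not analysed here, as no probe set carried its name alone. Rpl13a, which also takes part in silencing of inflammatory mRNAs in myeloid cells, had 40560.5, 36719.6 and 40578.4 in control and 39016.1, 39599.8 and 37174.6 in garlic-fed mice. Its log2 fold change was -0.024 (SE 0.064), and it became 0.054 after median centering. Rpl38, a protein whose loss in mice disturbs patterning of the axial skeleton, had 39876.3, 33195.2 and 36973.7 in control and 35952.7, 37583.5 and 33982.8 in garlic-fed mice. All 3 garlic-fed spleens lay within the control range for it (log2 fold change -0.031, or 0.047 after median centering).

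The members above 0 were no better separated. Rpl14 had signals of 483.6, 514 and 527.7 in control and 499.4, 626.6 and 532.9 in garlic-fed mice, with a log2 fold change of 0.12 (SE 0.13, adjusted p = 0.82). Rpl39, a small protein in the wall of the tunnel through which the nascent peptide leaves, had 444.7, 393 and 189.3 in control and 540.7, 242.9 and 343.8 in garlic-fed mice. It had the highest log2 fold change of the family, 0.15 (SE 0.35, adjusted p = 0.92), but its control mice spread more than 2-fold and its interval ran from -0.63 to 0.93. Without control mouse 3 its log2 fold change was -0.23. The 6 tested members of the exit tunnel list, Rpl39 among them, had a median of 0.0035, with 3 above 0 and 3 below.

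Among the small subunit members, 6 were above 0 and 16 below on the deposited scale, with a median log2 fold change of -0.031. Rps6, the substrate of S6 kinase downstream of mTOR (gene at chr4:86854099-86857367), had signals of 2158.3, 2156.4 and 2194.8 in control mice. The garlic-fed mice had 2029.1, 2019.3 and 1983.4. The groups did not overlap, and the difference was small and even: 2170 ± 21.6 (SD, n = 3) against 2011 ± 24.1 (SD, n = 3), a log2 fold change of -0.11 (SE 0.085, adjusted p = 0.70, with an unadjusted p of 0.22). In limma the spread of a gene is drawn toward that of genes of like signal, and for Rps6 the measured spread was the smaller one. By the methods' one-way test on its own spread Rps6 had an unadjusted p of 0.0011 and an adjusted p of 0.36. After median centering its log2 fold change was -0.032.

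Rps20, a protein of the head of the small subunit, had signals of 35217.5, 30926.3 and 33489.2 in control and 29263.1, 31115.7 and 31863.6 in garlic-fed mice. Garlic-fed mice 2 and 3 lay above control mouse 2, and the log2 fold change was -0.11 (SE 0.069, adjusted p = 0.62). Rps29, also a small subunit protein, had 42866.1, 37411 and 41403.5 in control and 38820, 40272.3 and 38618.7 in garlic-fed mice, all within the control range (log2 fold change -0.046, or 0.032 after median centering). Rps3a1 had a log2 fold change of -0.020 (SE 0.065) and Rps4x, which is X-linked, one of -0.0094 (SE 0.061); both were above 0 after median centering (0.058 and 0.069). For Rps27, whose control mice ran from 268.4 to 494.3 and garlic-fed mice from 267.7 to 417.5, the log2 fold change was -0.065 (SE 0.24).

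Rps2 and Rpsa were the small subunit members with the highest log2 fold changes. Rps2, at the entry of the mRNA channel, had signals of 26547.3, 25550.3 and 26859.8 in control and 26552.1, 28932.5 and 26909 in garlic-fed mice (log2 fold change 0.061, SE 0.063, adjusted p = 0.79). Rpsa had 31653, 30307.3 and 32931.1 in control and 33450.2, 36350.6 and 29370.9 in garlic-fed mice, so that garlic-fed mice held both the highest and the lowest value. Its log2 fold change was 0.059 (SE 0.082, adjusted p = 0.85), and without garlic-fed mouse 2 it was -0.012. Rps2, Rps3 and Rps15, the tested members of the list for mRNA entry and decoding, had a median of 0.013 and none passed the test.

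The members that are mutated in Diamond-Blackfan anemia were taken as a list because spleens of garlic-fed mice held more erythroblast signal. Of 20 such genes, 12 had a probe set of their own and were tested. None of the 12 passed the adjusted threshold or an unadjusted p of 0.05, 2 were above 0 and 10 below on the deposited scale, and the median log2 fold change was -0.046, with a range of -0.11 (Rps20) to 0.042. Rps19, the gene most often mutated in that disease, had signals of 27219.2, 24098.8 and 27701.1 in control and 26377.1, 26618.7 and 24375.7 in garlic-fed mice. The garlic-fed mice lay within the control range (log2 fold change -0.029, SE 0.074, adjusted p = 0.93, or 0.049 after median centering). Rps26 had a log2 fold change of 0.0014 (SE 0.068, adjusted p = 1.00) on the deposited scale and -0.012 after quantile normalization. Rps14, whose loss of 1 copy underlies the anemia of the 5q- syndrome, had one of -0.060 (SE 0.062, adjusted p = 0.79), or 0.018 after median centering.

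Markers of several cell types of the spleen lay to one side of 0 in the same comparison. Of 9 erythroblast markers tested, 9 were above 0 and 3 passed the adjusted threshold, with a median log2 fold change of 1.07, and their summed share of signal was 0.0936% to 0.117% in control and 0.144% to 0.199% in garlic-fed mice, with Hba-a1 under the filter. All 10 markers of neutrophils and their precursors were above 0 (median 0.60; 0.0454% to 0.0578% in control and 0.0550% to 0.0746% in garlic-fed mice), with none past the threshold. Of the lymphocyte markers, 8 of 9 for B cells (median -0.16) and 9 of 9 for T cells (median -0.19) were below 0, and none passed. B cell markers made up 0.171% to 0.190% of signal in control and 0.151% to 0.179% in garlic-fed mice, and T cell markers 0.0513% to 0.0552% and 0.0460% to 0.0518%. In whole spleens, fewer cells of a type and less RNA per cell cannot be told apart.

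The tissue label was checked in the same way. Of the markers with a probe set of their own, 9 of 9 for B cells and 9 of 9 for T cells passed the filter. For red pulp macrophages it was 9 of 10. No marker of any list had a signal of 0, but values under the floor are also above 0. That count therefore does not show that a marker was expressed. The red pulp macrophage markers made up 0.169% to 0.190% of signal in control and 0.178% to 0.217% in garlic-fed mice, with 9 of 9 tested above 0 (median 0.13) and Siglec1 under the filter. Pancreatic enzymes, all 13 below 0 (median -4.35), made up 0.0563% to 0.419% in control and 0.00684% to 0.108% in garlic-fed mice, and fat markers, all 7 tested above 0 (median 0.63), made up 0.0370% to 0.0419% and 0.0319% to 0.0696%. Control mouse 1 and garlic-fed mouse 2, the spleens with the most pancreatic signal of their group, were also the highest of their group for the ribosomal protein genes. Without these 2 arrays the median of the members was -0.019, with 14 above 0 and 31 below, and 0 were at an unadjusted p under 0.05. The median signal of an array was 127.9 to 132.2 in control and 119.7 to 128.8 in garlic-fed mice, and the ratio of 3′ to 5′ Gapdh signal, a measure of RNA integrity, was 0.801 to 0.881 and 0.769 to 0.999. The part of cell composition, of pancreatic or fat tissue and of RNA quality in the values of the members was not tested.

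Some members are relatives of a ribosomal protein that are expressed narrowly or in addition to it. Of 7 listed, Rpl10l had no probe set of its own and was not analysed here, and Rpl3l, the form of Rpl3 in striated muscle, was under the filter. Rpl3l had signals of 7.3, 12.2 and 14.4 in control and 12.8, 27.9 and 3.9 in garlic-fed mice, most of them under the floor of 23.5. Rpl39l, the relative of Rpl39 best known from testis, had 263.1, 124.8 and 46.4 in control and 165.4, 56.9 and 45.3 in garlic-fed mice. Its values spread over more than 5-fold among control mice, and its log2 fold change of -0.61, the lowest of the family, had an SE of 0.63 and an adjusted p of 0.79. Without control mouse 1 and garlic-fed mouse 2 it was 0.19.

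Rpl22l1, the relative of Rpl22, had a log2 fold change of -0.013 (SE 0.092), and Rpl22, which is needed for development of alpha beta T cells, one of -0.0054 (SE 0.066). Dimmer probe sets of Rpl22 had log2 fold changes of -0.16 (SE 0.11, adjusted p = 0.66) and -0.22 (SE 0.11, adjusted p = 0.52). The mean of its probe sets gave a log2 fold change of -0.13. Rps27l, a target gene of p53, had one of -0.012 (SE 0.11), though without garlic-fed mouse 1 it was 0.090 and without garlic-fed mouse 3 it was -0.13. Rps4l had signals of 447.4, 334.6 and 407.8 in control and 362.2, 410.5 and 289.5 in garlic-fed mice (log2 fold change -0.17, SE 0.18, adjusted p = 0.80). Rpl7l1, a relative of Rpl7, had 1600.9, 1855.2 and 1665.8 in control and 1742.2, 2004.4 and 1832 in garlic-fed mice. The groups overlapped for it, with a log2 fold change of 0.12 (SE 0.10, adjusted p = 0.73). Without the relatives, the median of the 40 tested members was -0.018.

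Rps16 was the other member under the filter. Its only probe set of its own had signals of 5.2, 11.5 and 3.4 in control and 44.2, 21.3 and 2.9 in garlic-fed mice. With most of its signals under the floor, Rps16 was not tested.

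Ribosomal protein genes have many processed pseudogenes, and 1 probe set may read several of these copies. Of the 47 representative probe sets, 32 had an identifier with a suffix. In 16 it was _a_at, which marks a probe set shared among transcripts of the same gene. The others, 2 ending in _s_at and 14 in _x_at, are marked as shared among several transcripts or similar sequences. Of the members, 24 had more than 1 probe set. All 94 tested probe sets of the family were also compared, and none passed the adjusted threshold, a threshold that 0.226% of all probe sets tested passed as higher and 0.0111% as lower. At an unadjusted p under 0.05, 0 of the 94 were higher and 5 (5.32%) were lower, against 5.58% and 5.44% of all probe sets. Every garlic-fed mouse was above every control mouse for 1 of them (7.52% of all probe sets) and below for 8, or 8.51% (9.29% of all probe sets). The 67 with a mean log2 signal of at least 12 had log2 fold changes between -0.18 and 0.099. The 27 dimmer ones ran from -1.18 to 0.38, with a median of -0.14, and the representatives of Rpl37, Rpl12 and Rps6 were among them.

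Several genes had probe sets that disagreed. For Rps20 a dim probe set had signals of 191.6, 142.8 and 139.4 in control and 109.5, 77.7 and 84.7 with garlic, for a log2 fold change of -0.80 (SE 0.25, adjusted p = 0.26, with an unadjusted p of 0.0097). Another dim one had -0.36, both bright probe sets of Rps20 differed by much less (-0.11 and -0.057), and the mean of its probe sets gave -0.33 with an adjusted p of 0.19. For Rps18 a dim probe set had 140.1, 129.9 and 145.3 in control and 99.2, 24.8 and 92.2 with garlic, for a log2 fold change of -1.18 (SE 0.48, adjusted p = 0.40). A further dim probe set of Rps18 had -0.59. Another, under the filter and not tested, had 0.73, with every garlic-fed mouse above every control mouse. The representative probe set of Rps18 had -0.0056. Rpl37a had a dim probe set at 0.38 beside a representative at 0.033, and Rps10 one at -0.37, with garlic-fed mouse 3 alone far below the others, beside a representative at -0.033. A second probe set of Rpl27, dimmer than its representative but above a mean log2 signal of 12, had -0.18 (SE 0.070, adjusted p = 0.40, with an unadjusted p of 0.032) where the representative had -0.029. These probe sets were picked out after their values were seen.

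**Figure D4:**
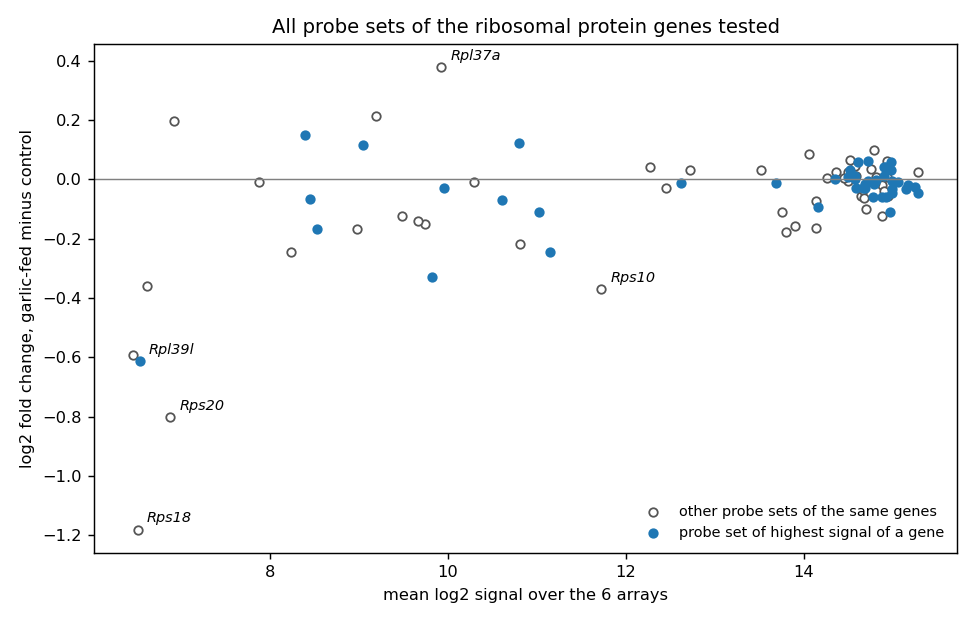
Log2 fold change, garlic-fed minus control, against the mean log2 signal over the 6 arrays for all 94 tested probe sets of the ribosomal protein genes (filled, the probe set of highest signal of each gene; open, the others). At a mean log2 signal of 12 or more all points lie between -0.18 and 0.099; below it they spread from -1.18 (Rps18) to 0.38 (Rpl37a).

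Fau, which encodes Rps30 fused to a ubiquitin-like protein, and Rplp0 and Rplp2 of the stalk fall outside the symbol rule. Their log2 fold changes were 0.055 (SE 0.081), 0.030 (SE 0.059) and 0.018 (SE 0.076), and none passed the test. Of 16 other TOP mRNAs of translation tested, none passed, and the median was -0.044 with 5 above 0 and 11 below. The smallest p-values there were those of Eef1d, an exchange factor of the elongation factor eEF1A (0.17, SE 0.081, adjusted p = 0.49), the histone chaperone gene Nap1l1 (-0.14, adjusted p = 0.62) and the initiation factor subunit gene Eif3f (-0.080, adjusted p = 0.73).

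The genes that make ribosomes gave the same count at the adjusted threshold. Of 63 ribosome assembly factors tested, none passed it, while at an unadjusted p under 0.05 there were 1 higher and 3 lower, shares under those of all genes. Wdr75, a factor of early small subunit assembly, had signals of 1435.7, 2052.4 and 1564.3 in control and 2562.4, 2284.6 and 2258.6 in garlic-fed mice. The groups did not overlap, and the log2 fold change was 0.51 (SE 0.13, adjusted p = 0.19, with an unadjusted p of 0.0037), but it was -0.082 by the probe set without a suffix. Riok2, a kinase of late small subunit maturation, had a log2 fold change of -0.39 (SE 0.14, adjusted p = 0.32), and Nmd3, the export adaptor of the large subunit, one of -0.30 (SE 0.11, adjusted p = 0.36). Of 15 genes of RNA polymerase I, which transcribes rRNA, and its factors, 10 were above 0 and 5 below, with a median of 0.074 and 0 at an unadjusted p under 0.05. Taf1b (-0.32, adjusted p = 0.49) and Taf1c (0.23, adjusted p = 0.53), both subunits of its selectivity factor, stood on opposite sides of 0, and the polymerase subunit gene Polr1e was at 0.20 (adjusted p = 0.72).

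Among 25 translation initiation factors none passed either threshold, and the median was -0.0085. Eif2b3 (-0.32, adjusted p = 0.48) and Eif2b4 (0.23, adjusted p = 0.62) encode subunits of the same exchange factor, eIF2B, and were on opposite sides of 0, while Eif5, which activates the GTPase step of start codon selection, was at 0.26 (adjusted p = 0.48). Among 16 genes that control synthesis of ribosomal proteins none passed either threshold, with a median of 0.023. Tsc2, the inhibitor of mTOR signaling, was at 0.25 (SE 0.14, adjusted p = 0.59), Larp1 at 0.11 (SE 0.099, adjusted p = 0.74) and Mycn, a Myc family activator of ribosome synthesis, at 0.24 (SE 0.24, adjusted p = 0.78).

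The mitochondrial ribosome, built from other proteins for the mRNAs of mitochondrial DNA, was taken as the family most like the cytosolic one. Of its 76 genes tested, 0 passed the adjusted threshold, at an unadjusted p under 0.05 there were 1 higher and 0 lower, and 28 were above 0 and 48 below, with a median of -0.058. Mrps6 had signals of 753.4, 950.4 and 908.2 in control and 966.7, 1338 and 1173.7 in garlic-fed mice, without overlap (log2 fold change 0.41, SE 0.15, adjusted p = 0.33). Mrpl54 (-0.29, adjusted p = 0.47) and Mrps9 (-0.25, adjusted p = 0.50) were the next in order of p-value. The within-group SD had a median of 0.13 over these genes, wider than the 0.076 of the cytosolic members. The 2 families were not matched for brightness: the median log2 signal was 10.4 in the mitochondrial and 14.7 in the cytosolic one.

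**Figure D5:**
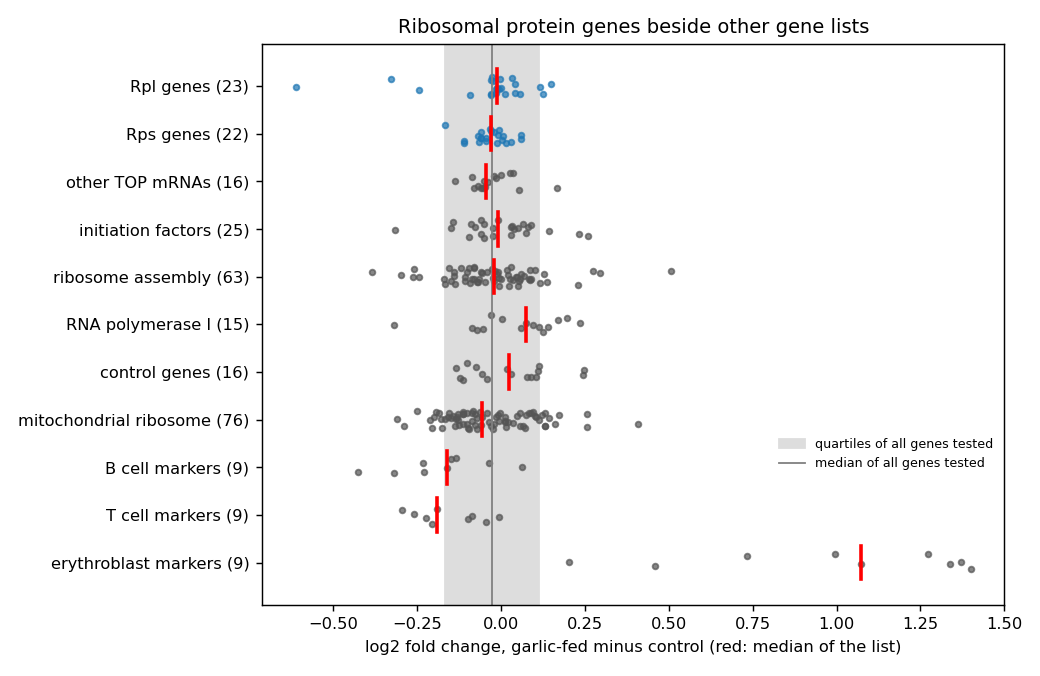
Log2 fold change of each gene tested, garlic-fed minus control, in the ribosomal protein genes of the large (Rpl, 23) and small (Rps, 22) subunit (blue) and in other lists (gray), with the median of each list as a red line; the band and line show the quartiles and the median of all 12262 genes tested (-0.17, 0.11 and -0.028). The medians of the 2 subunits (-0.013 and -0.031) lie beside that of all genes, and the 9 erythroblast markers (median 1.07) lie to the right of the band.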

How the data were processed

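Spleen RNA of 6 mice was measured on 1 Affymetrix array each. The values are intensity values, MAS5 signals on a linear scale that the authors made and deposited; the MAS5 version is not given in the sources used here. Arrays had been scaled to a trimmed mean of 500, as read from the values by leaving out the top and bottom 2%. The number of arrays limits the precision. Control probe sets (64) were left out. Names came from the array annotation, and all 47 members matched a RefSeq gene (GRCm38.p6) by identifier. Probe sets with several gene names (932) or none (9160) were not named. A floor of 23.5 (the 20th percentile) was applied, log2 was taken, and the 27022 probe sets above the 40th percentile of mean log2 signal (6.08) were tested with limma 3.58.1 in R 4.3.3 (lmFit, eBayes with a trend of variance), garlic minus control, with Benjamini-Hochberg adjustment over all of them. Fold changes are on the log2 scale of floored signals. Start sites were read, and figures drawn, with Python 3.11.15 and matplotlib 3.10.9.

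The members, lists and tests were chosen with earlier results of these data known, so no p-value was adjusted over a list and no list was tested as a set; counts and medians describe them. Named are members at an unadjusted p under 0.05 (none passed the adjusted threshold), the 5 of highest and 5 of lowest log2 fold change and mean signal, the relatives, Rps19, Rpl5, Rpl11, Rps26 and Rps14, the genes outside the symbol rule and up to 3 genes of smallest p of each other list. Rps6, Rpl22, Rpl27, Rpl37a, Rps10, Rps18 and the single probe sets were added after their values were seen. Alternatives were quantile normalization, median centering, removing the floor or raising it to the 40th percentile, removing the filter or raising it to the 60th, no trend, the methods' analysis of variance on log2 and linear signals, a replicate block, dropping each array in turn, averaging the probe sets of a gene and taking probe sets without a suffix. Leaving out control mouse 1 and garlic-fed mouse 2 was chosen after seeing the data. All steps of the test were also run on simulated data with known changes.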

Additional observations from a re-analysis of the deposited data

How the results depend on the processing

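No ribosomal protein gene passed the adjusted threshold under any alternative run. The number lower at an unadjusted p under 0.05, 2 on the deposited scale, was 0 with median centering, without a trend of variance and without control mouse 1 and garlic-fed mouse 2, 1 with a filter at the 60th percentile and with the methods' analysis of variance on log2 or on linear signals, 3 with the probe sets of a gene averaged, and 0 to 2 when single arrays were left out. With either analysis of variance the 1 member was Rps6, so Rpl37 and Rpl12 did not reach an unadjusted p under 0.05 there. The cause of these shifts was not tested. The median log2 fold change of the members was -0.016 on the deposited scale, 0.062 with median centering, -0.031 with the probe sets of a gene averaged, -0.065 over the 23 members with a tested probe set without a suffix (7 above 0 and 16 below) and -0.041 to 0.0073 when single arrays were left out.

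Over all probe sets, 61 passed the adjusted threshold as higher and 3 as lower. These counts were 147 and 4 with median centering, 79 and 6 with a floor at the 40th percentile, 4 and 7 without a filter, 0 and 0 without a trend and with either analysis of variance, and 8 and 28 without control mouse 1 and garlic-fed mouse 2. Leaving out single arrays gave 0 to 103 higher and 0 to 33 lower. The replicate number as a block gave 270 higher and 25 lower and 0 members of either direction. The labels give the numbers only as those of biological replicates. Mice of the same number deviated from their group means with correlations of 0.00064, -0.18 and 0.078. Control mouse 1 correlated best with garlic-fed mouse 2 (0.11), so that not every mouse correlated best with its own number. Whether mice of the same number shared a batch was not tested.

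Of 907 values of 49 named genes under alternatives, 842 kept their direction and 65 reversed. With median centering the reversed values were Rps29 0.032, Rpl13a 0.054, Rpl38 0.047, Rps3a1 0.058, Rps4x 0.069, Rps27 0.013, Rps27l 0.066, Rpl22l1 0.065, Rps19 0.049, Rps14 0.018, Rpl22 0.073, Rpl27 0.049, Rps10 0.045 and Rps18 0.072. With quantile normalization they were Rps3a1 0.0065, Rpl22l1 0.0047 and Rps26 -0.012. With the probe sets of a gene averaged they were Rpl7l1 -0.044, Rpsa -0.056, Rps29 0.014, Rpl13a 0.021, Rps4x 0.099, Rps27l 0.00074 and Polr1e -0.050, and with probe sets without a suffix Wdr75 -0.082 and Polr1e -0.30. Without control mouse 1 and garlic-fed mouse 2 they were Rpl14 -0.014, Rpsa -0.011, Rpl39l 0.19, Rps26 -0.019, Fau -0.021 and Rplp0 -0.0045. Leaving out single arrays gave ranges across 0 for Rpl39 (-0.23 to 0.43), Rpsa (-0.012 to 0.14), Rpl13a (-0.072 to 0.0023), Rpl38 (-0.10 to 0.032), Rps3a1 (-0.050 to 0.023), Rps4x (-0.030 to 0.026), Rps27 (-0.28 to 0.17), Rps27l (-0.13 to 0.090), Rpl22l1 (-0.10 to 0.038), Rps19 (-0.092 to 0.011), Rps26 (-0.040 to 0.035), Fau (-0.023 to 0.12), Rplp2 (-0.051 to 0.072), Rpl22 (-0.039 to 0.034), Rpl37a (-0.021 to 0.090) and Rps18 (-0.029 to 0.031). None of these reversed values passed the adjusted threshold. At the dim end of the array, signal over background limits what can be seen.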

Other observations

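A further 109 probe sets carried several gene names, at least 1 of them a symbol of the ribosomal protein form, and 27 of the 42 symbols on them were not among the members. Of the 103 that were bright enough to be tested, none passed the adjusted threshold, an unadjusted p under 0.05 was reached by 0 as higher and by 2 as lower (5.58% and 5.44% of all probe sets tested). Every garlic-fed mouse was above every control mouse for 2 and below for 5 (7.52% and 9.29% of all probe sets tested). Their median log2 fold change was -0.012, with 36 above 0 and 67 below on the deposited scale. They were not assigned to a gene, since the array annotation names several for each.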
